A study of Mus musculus with 8 samples.

Results

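The genes described here are 34 cell cycle and DNA replication genes of the mouse, out of 49315 genes counted in kidney RNA. They were listed by gene name and role, with earlier results of these data known. Their roles were G1 cyclins and kinases (5 genes), regulators of entry into S phase (4), licensing factors and the MCM helicase (8), DNA synthesis (3), cyclin A2 (1) and mitosis (13). All 34 were found in the count table and passed the filter on low counts. The 8 licensing and helicase genes and the 3 DNA synthesis genes are together called the replication genes.

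Messenger RNA was sequenced from frozen kidney tissue of 4 libraries labelled control, which the protocol text calls wild type, and 4 labelled conditional knockout. The targeted gene, Kdm1a, encodes LSD1, which removes methyl groups from histones. The Cre driver, the age and sex of the animals and the cell type in which the gene was deleted are not given in the sources used here. Nothing in the labels says that the libraries came from separate animals. Each p-value therefore sets the group difference against the spread between these samples, which may be in part technical. Numbers after a group name are the replicate numbers of the labels.

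A dividing cell passes from G1 through DNA replication in S phase to mitosis. D-type cyclins with Cdk4 and Cdk6 phosphorylate the retinoblastoma protein in G1, which frees E2F factors to switch on cyclin E and the genes of DNA replication. Genes of mitosis are transcribed later, in G2, and in quiescent cells they are repressed by the DREAM complex. In the kidney most cell division takes place in the growing organ, whereas adult tubules divide rarely unless injured.

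Promoters are shown because replication and mitotic genes differ in how often they carry certain short motifs there, a feature that the expression values do not use. The motifs did not separate the classes fully. RefSeq promoter windows of build GRCm38.p6, from 250 bases before to 50 bases after a start site, were matched for 28 of the 34 genes. Ccnd1, Ccnd2, Ccne2, Mcm4, Ccna2 and Aurkb had no entry. Each window was searched on both strands for E2F motifs (TTCCCGC or TTGGCGC), for the cell cycle homology region, or CHR (TTTGAA or TTCGAA), and for CCAAT. The reverse complement of TTGGCGC can share bases with CCAAT, as it did in Ccnb1. The 180 bases before the start site are printed 5′ to 3′ for 3 mitotic and 3 replication genes picked as examples, with motif matches in capitals.
Cdc20 (chr4:118437344-118437523, minus strand): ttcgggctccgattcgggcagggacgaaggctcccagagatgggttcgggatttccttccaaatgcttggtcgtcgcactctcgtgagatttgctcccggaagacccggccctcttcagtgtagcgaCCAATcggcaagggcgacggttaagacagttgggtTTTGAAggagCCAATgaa
Cdk1 (chr10:69352913-69353092, minus strand): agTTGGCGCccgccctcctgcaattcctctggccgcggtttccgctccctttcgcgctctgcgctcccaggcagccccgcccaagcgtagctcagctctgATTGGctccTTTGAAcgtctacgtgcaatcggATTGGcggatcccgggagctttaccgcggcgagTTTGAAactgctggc
Kif11 (chr19:37376202-37376381, plus strand): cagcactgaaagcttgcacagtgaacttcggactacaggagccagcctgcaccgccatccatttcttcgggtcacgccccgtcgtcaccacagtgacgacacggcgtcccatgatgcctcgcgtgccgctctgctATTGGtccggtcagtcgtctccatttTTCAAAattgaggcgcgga
Mcm6 (chr1:128359706-128359885, minus strand): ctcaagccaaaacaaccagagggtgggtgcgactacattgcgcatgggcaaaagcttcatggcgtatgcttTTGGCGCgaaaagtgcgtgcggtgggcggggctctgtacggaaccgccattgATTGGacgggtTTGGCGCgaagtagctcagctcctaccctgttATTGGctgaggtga
Mcm5 (chr8:75109329-75109508, plus strand): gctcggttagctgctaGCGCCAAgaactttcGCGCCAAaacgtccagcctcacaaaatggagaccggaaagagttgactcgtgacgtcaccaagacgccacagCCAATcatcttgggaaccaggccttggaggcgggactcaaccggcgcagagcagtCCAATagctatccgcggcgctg
Cdc6 (chr11:98907971-98908150, plus strand): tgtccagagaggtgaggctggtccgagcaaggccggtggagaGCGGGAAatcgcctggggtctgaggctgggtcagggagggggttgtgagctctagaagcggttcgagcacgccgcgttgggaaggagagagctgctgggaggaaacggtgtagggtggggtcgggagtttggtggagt

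Cdc20, Cdk1 and Kif11 each held a CHR match within 20 bases of the start site, at 18, 15 and 19 bases before it, and at least 1 CCAAT match farther upstream. Mcm6 and Mcm5 each held a pair of E2F matches and no CHR. Cdc6 held 1 E2F match, 138 bases before the start, and no CCAAT. Over all mitotic genes with an entry, 10 of 12 promoters held a CHR, against 2 of 11 replication promoters and 19.2% of all 32851 promoters of the same length. E2F matches stood in 3 of 12 mitotic and 7 of 11 replication promoters (6 of 10 genes), against 6.8% of all promoters. Classes were mixed: Mcm2 and Mcm7 held a CHR, and Mki67, Cdk1 and Ccnb1 an E2F match. Mcm2, Pcna, Rrm2 and Tyms held no E2F match. CCAAT stood in 11 of 12 and 8 of 11, against 37.4%. A match is a string of letters and was not tested for binding.

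Total counts ran from 19524945 to 28544511 per library, and levels are given as counts per 1000000 (CPM) with library sizes scaled by the trimmed mean of M values (TMM). Kdm1a itself stood at 113 ± 4.77 CPM in controls and 93.6 ± 1.88 CPM in knockouts (SD, n = 4), and all 4 knockouts lay below all 4 controls (log2 fold change -0.27, SE 0.05, edgeR adjusted p = 0.0194, exact two-sided permutation p = 0.0286, the smallest that 70 assignments allow). The counts cover the whole gene, and which exons were deleted is not given. All 8 proximal tubule markers were called lower, with a summed level of 528 to 2149 CPM in controls and 39.8 to 294 CPM in knockouts. Of 8 markers of other kidney epithelium, Umod, Slc12a3 and Nphs1 were called lower, the summed level was 851 to 2388 CPM in controls and 371 to 1400 CPM in knockouts, and Pax8 stood at 117 to 133 and 115 to 138 CPM. Nephron progenitor markers summed to 600 to 868 CPM in controls and 712 to 981 CPM in knockouts, with Gdnf called higher and Cited1 and Meox1 lower. Adrenal markers summed to 2700 CPM in knockout 1, 365 CPM in knockout 4 and 154 CPM in control 4, and to between 17.7 and 24.7 CPM in the other libraries. Leukocyte markers summed to 59.2 to 72.4 CPM in controls and 71.4 to 85.5 CPM in knockouts. Of 6 tested, only Ptprc was called, higher, at 15.8 to 26.3 and 35.0 to 41.7 CPM (log2 fold change 0.93, edgeR adjusted p = 0.0146). The other estimates were 0.89 for Itgam, 0.30 for Cd68, 0.09 for Cd79a, 0.03 for Adgre1 and -0.40 for Csf1r. Erythroid markers summed to 400 to 821 CPM in controls and 457 to 1398 CPM in knockouts. Germ cell markers summed to 66.3 CPM in control 2 and to at most 5.83 CPM elsewhere, with Stra8 and Oosp1 at 0. Markers of ovary and testis somatic cells summed to 29.6 to 79.2 CPM in controls and 57.2 to 119 CPM in knockouts. Most of that sum was Sox9 (16.9 to 59.3 and 42.9 to 70.3 CPM) and Inha (11.9 to 17.3 and 13.5 to 49.8 CPM). Foxl2, Amh, Fshr, Insl3 and Cyp19a1 reached at most 0.974 CPM in any library, and Cyp17a1 at most 1.86 CPM. Y-linked transcripts were high in controls 1, 3 and 4 and knockouts 2 and 3. On the first principal component of all genes (62.7% of the variance) control 2 lay at 9.6, beside knockout 3 at 9.7, whereas the other controls lay between -78.7 and -52.4 and the other knockouts between 48.3 and 68.4. The part of these differences in the results on the cell cycle genes was not tested beyond the values given beside them.

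Few of the 34 genes passed the test between genotypes. With the quasi-likelihood test of edgeR and an adjusted p under 0.05, Ccnd2 was higher and Ccnd1 lower in knockouts, so 2 of 34 genes (5.88%) were called, against 14.9% of all 18485 genes tested. The background was 6.61% for calls of higher and 8.27% for calls of lower expression. Knockouts and controls did not overlap for 4 of the 34, Ccnd1, Ccnd2, Cdk4 and Cdk6, against 18.9% of all genes. Of these, Ccnd2 and Cdk6 lay higher and Ccnd1 and Cdk4 lower, against 9.29% and 9.58% of all genes. Before adjustment, p was under 0.05 for 8 of the 34 (23.5%) and for 35.1% of all genes. None of the 34 reached a 2-fold change. The median ratio of the highest to the lowest library was 1.31 for the 34 genes, and 1.39 for the 11186 genes that averaged 10 CPM or more.

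**Figure D1:**
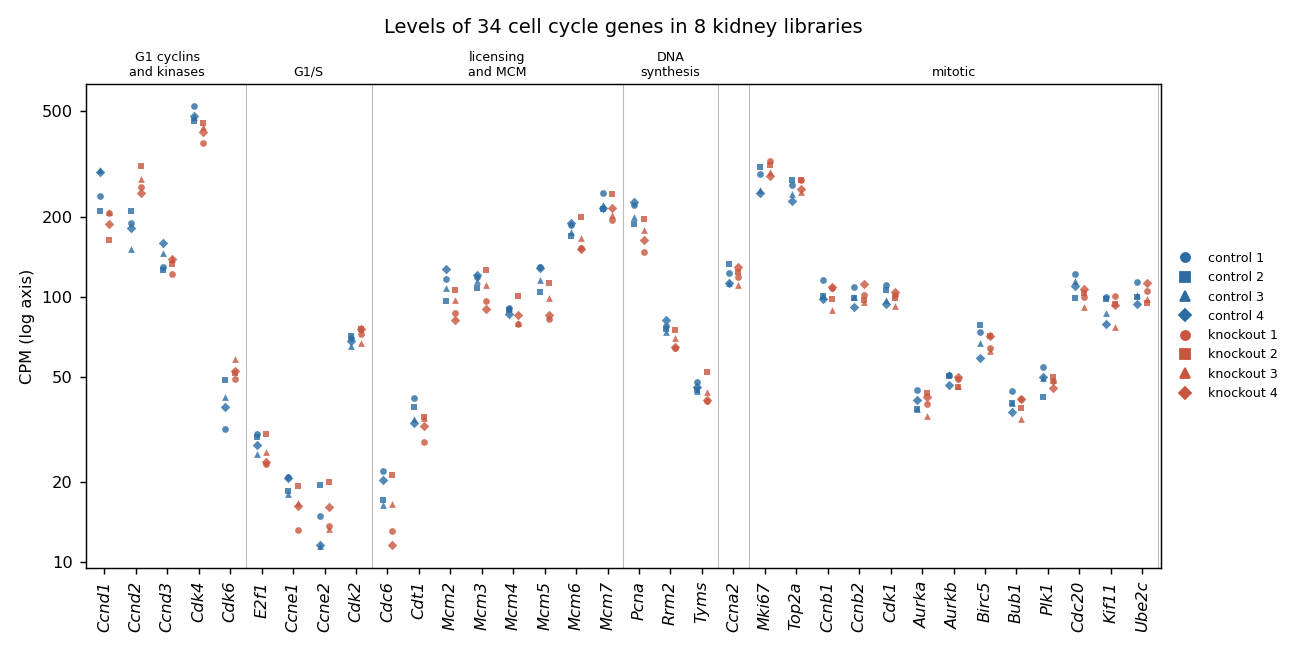
CPM of each of the 34 genes in every library, on a log axis, by role; blue marks are controls and red marks knockouts, and the marker shape gives the replicate number. The groups are separate for Ccnd1, Ccnd2, Cdk4 and Cdk6 and overlap for the other 30 genes.

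The D-type cyclins, which carry growth signals to the cycle in G1, moved in opposite directions. Ccnd1 (chr7:144929931-144939925, minus strand) stood at 240, 210, 299 and 294 CPM in controls 1 to 4 and at 207, 164, 209 and 188 CPM in knockouts 1 to 4. All knockouts lay below all controls, although control 2 and knockout 3 nearly met. The mean fell from 261 ± 43.2 to 192 ± 21.0 CPM (SD, n = 4), a log2 fold change of -0.44 (SE 0.13, 95% interval -0.73 to -0.16, edgeR adjusted p = 0.0473). In bulk tissue, fewer cells that express a gene and less RNA per cell cannot be told apart.

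Ccnd2 (chr6:127125162-127152193, minus strand), the D cyclin that rose, stood at 190, 210, 151 and 182 CPM in controls and at 258, 311, 277 and 246 CPM in knockouts. Every knockout was above every control, and knockout 2 was the highest. The mean rose from 183 ± 24.8 to 273 ± 28.6 CPM (SD, n = 4), a log2 fold change of 0.57 (SE 0.11, 95% interval 0.32 to 0.82, edgeR adjusted p = 0.0188). Ccnd3, the third D cyclin, ranged from 126 to 159 CPM in controls and from 122 to 139 CPM in knockouts. Its groups overlapped and it was not called (log2 fold change -0.07, 95% interval -0.27 to 0.12).

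The summed level of the D cyclins, in CPM per kilobase of exon, was 81.3 to 99.9 in controls and 81.8 to 89.5 in knockouts, so that the groups overlapped. The make-up of that sum differed. Ccnd1 made up 54.8% to 66.0% of it in controls and 41.9% to 51.6% in knockouts, and Ccnd2 made up 16.7% to 27.5% and 31.9% to 39.9%. Ccnd3 made up 17.2% to 18.1% in controls and 16.3% to 19.4% in knockouts. The ratio of Ccnd2 to Ccnd1 per kilobase was 0.40, 0.50, 0.25 and 0.31 in controls and 0.62, 0.95, 0.66 and 0.66 in knockouts. It was under 1 in every library, so Ccnd1 remained the more abundant per length.

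Both calls were sensitive to single libraries. The call of Ccnd1 was lost when any library other than control 2 was left out, with adjusted p between 0.0525 and 0.131, and that of Ccnd2 when control 1, control 3, knockout 2 or knockout 4 was left out, with adjusted p between 0.0504 and 0.0547. The log2 fold changes stayed between -0.54 and -0.37 for Ccnd1 and between 0.49 and 0.65 for Ccnd2. Over all genes the share of calls fell to between 0.819% and 3.65% without each of controls 1, 3 and 4 and knockouts 1, 2 and 4 (2.86% without control 1 and 3.15% without knockout 2), and was 17.0% without knockout 3 and 37.4% without control 2. With an adrenal covariate Ccnd2 was the only one of the 34 called, against 7.53% of all genes, and with no filter on low counts, where 7.36% of genes were called, both cyclins were. Without the 3 libraries high in adrenal markers the log2 fold changes were -0.42 for Ccnd1 (adjusted p = 0.413) and 0.68 for Ccnd2 (adjusted p = 0.285), in a comparison of 3 controls with 2 knockouts that called 1 gene in all (0.00522% of genes). Among the 5 libraries with Y-linked transcripts they were -0.57 (adjusted p = 0.0436) and 0.76 (adjusted p = 0.0174), whereas a covariate for Y-linked transcripts gave Ccnd1 an adjusted p of 0.0787.

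The kinases that D cyclins bind were separate between groups but not called by edgeR. Of 20 alternatives, 3 called Cdk4 and 6 called Cdk6. The 20 include a refit on the counts deposited per library, which were identical and so repeated the main result. DESeq2 called both (adjusted p = 0.0434 for Cdk4 and 0.0225 for Cdk6), as did limma-voom (0.0172 and 0.00612) and edgeR without control 2 (0.0374 and 0.00678). Of all genes, these settings called 24.4%, 44.9% and 37.4%. edgeR also called Cdk6 without TMM (adjusted p = 0.0457), with a replicate block (0.0337) and among libraries with Y-linked transcripts (0.0375). There the shares of all genes were 14.8%, 17.5% and 16.7%. Without the 3 libraries high in adrenal markers, where 1 gene in all was called (0.00522%), the edgeR adjusted p was 0.586 for Cdk4 and 0.407 for Cdk6. The log2 fold changes there were -0.13 and 0.43. Cdk4 (chr10:127063534-127067920, plus strand) stood at 524, 459, 474 and 478 CPM in controls and at 379, 451, 437 and 417 CPM in knockouts. Control 2 and knockout 2 lay close together, and knockout 1 was the lowest (log2 fold change -0.20, SE 0.07, edgeR adjusted p = 0.0859). Cdk6 (chr5:3341485-3531008, plus strand) stood at 31.9, 48.4, 41.9 and 38.5 CPM in controls and at 48.9, 51.6, 58.1 and 52.7 CPM in knockouts. Control 2 again lay next to the knockouts (log2 fold change 0.39, SE 0.12, edgeR adjusted p = 0.0555). Per kilobase, Cdk4 exceeded Cdk6 by 40.8 to 70.7 times in controls and by 32.4 to 37.7 times in knockouts. Tspan31 overlaps Cdk4 on the opposite strand and stood at 74.4 to 91.8 CPM in controls and 75.2 to 77.4 CPM in knockouts, and LTO1, which overlaps Ccnd1, stood at 22.4 to 24.4 and 21.0 to 22.6 CPM. Counting is not stated to use strand, so reads of such partners cannot be told apart.

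**Figure D2:**
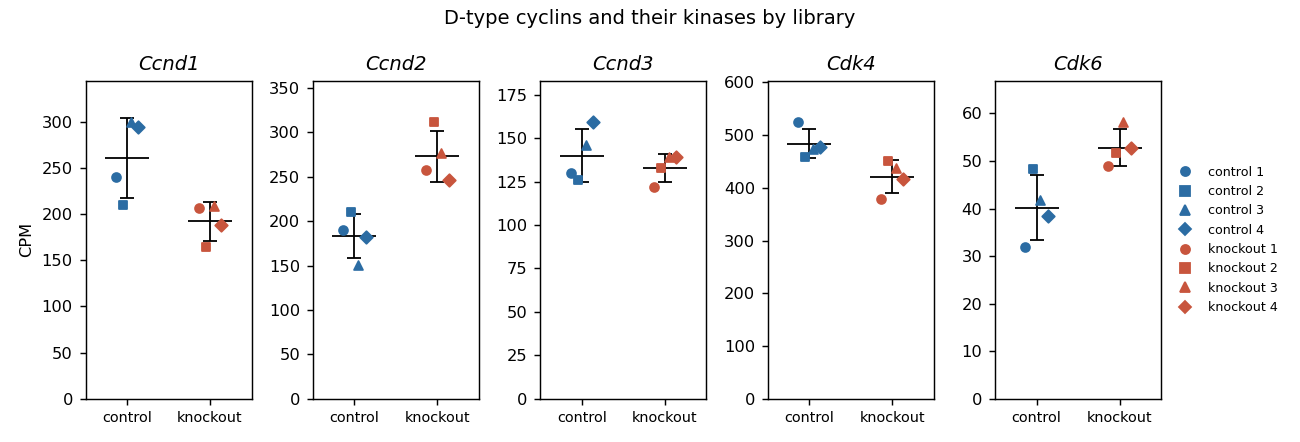
CPM of the D-type cyclins and their kinases in each library, on axes that start at 0; horizontal bars are group means, error bars the SD of 4 libraries, and marker shapes the replicate numbers. Ccnd1 and Cdk4 lie lower and Ccnd2 and Cdk6 higher in knockouts, while Ccnd3 overlaps.

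The regulators of S phase entry showed 0 calls among 4 genes, and 0 had an unadjusted p under 0.05, against 14.9% and 35.1% of all genes. E2f1, the factor that switches on replication genes, ranged from 25.5 to 30.4 CPM in controls and from 23.5 to 30.4 CPM in knockouts (log2 fold change -0.12). Ccne1, a cyclin that activates Cdk2, ranged from 18.1 to 20.9 and from 13.2 to 19.4 CPM (log2 fold change -0.25, edgeR adjusted p = 0.186). Its paralog Ccne2 ranged from 11.5 to 19.5 and from 13.3 to 20.1 CPM, with the highest value of each group in replicate 2. Cdk2 varied little, from 65.5 to 71.3 CPM in controls and from 67.1 to 75.7 CPM in knockouts (log2 fold change 0.08, 95% interval -0.06 to 0.22).

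None of the 11 replication genes was called by edgeR, and all 11 estimates lay below 0. Without TMM scaling those of Mcm4, Mcm7 and Tyms lay above 0. Without the 3 libraries high in adrenal markers those of Cdc6, Mcm3, Mcm6 and Tyms lay above 0 and that of Mcm4 at 0.00. Among libraries with Y-linked transcripts those of Mcm3, Mcm4 and Tyms lay above 0 and that of Mcm6 at 0.00. Some other settings also put Mcm4 or Tyms above 0. In the main fit the median log2 fold change of the 11 genes was -0.17, with a range of -0.33 to -0.04, beside a median of 0.00 over all genes, of which 49.5% lay below 0. Among genes of at least 10 CPM the median was -0.03 and 55.0% lay below 0. Before adjustment, p was under 0.05 for Mcm5, Mcm2, Pcna and Rrm2, 4 of the 11 (36.4%), which is near the 35.1% of all genes and below the 40.9% of genes of at least 10 CPM. DESeq2, which called 24.4% of all genes, called Mcm5 (adjusted p = 0.0373) and Pcna (adjusted p = 0.0393). limma-voom with sample weights, which called 44.9%, called these as well as Mcm2 (adjusted p = 0.0147) and Rrm2 (adjusted p = 0.0426). With a covariate for Y-linked transcripts edgeR called Mcm5 (adjusted p = 0.0422), against 11.4% of all genes. Without control 2, edgeR called Mcm5, Pcna and Mcm2 (adjusted p = 0.0233, 0.0284 and 0.0284), against 37.4% of all genes.

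The licensing factors load the helicase onto origins in G1. Cdc6, the loader, stood at 22.0, 17.2, 16.5 and 20.5 CPM in controls and at 13.1, 21.4, 16.6 and 11.6 CPM in knockouts. Its knockout libraries spanned a wider range than the controls and overlapped them (log2 fold change -0.28, SE 0.19). Cdt1, its partner in loading, ranged from 33.6 to 41.6 CPM in controls and from 28.4 to 35.3 CPM in knockouts (log2 fold change -0.17).

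Mcm2 to Mcm7 form the ring that unwinds DNA at the fork. Mcm5 stood at 129, 104, 116 and 128 CPM in controls and at 82.6, 113, 98.9 and 85.7 CPM in knockouts. Knockouts 1, 3 and 4 were below every control and knockout 2 was within their range (log2 fold change -0.33, SE 0.11, edgeR adjusted p = 0.0775). Mcm2 stood at 117, 96.5, 108 and 127 CPM in controls and 86.6, 106, 97.4 and 81.9 CPM in knockouts (log2 fold change -0.27, SE 0.11, edgeR adjusted p = 0.109). Knockouts 1 and 4 lay below every control, and knockout 3 lay just above control 2. The other 4 subunits had smaller estimates, from -0.13 for Mcm3 and -0.10 for Mcm6 to -0.07 for Mcm7 and -0.05 for Mcm4. For Mcm4, knockout 2 at 101 CPM exceeded every control (85.8 to 90.6 CPM), while the other knockouts stood at 79.1, 79.4 and 85.1 CPM. Mcm7 shares its position with Mir106b, Mir25 and Mir93 on the same strand.

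Among the genes of DNA synthesis, Pcna, the sliding clamp of the polymerases, stood at 221, 188, 200 and 227 CPM in controls and at 147, 196, 179 and 163 CPM in knockouts. Knockout 2 was again the one within the control range (log2 fold change -0.29, SE 0.10, edgeR adjusted p = 0.0780). Rrm2, the regulated subunit of ribonucleotide reductase, ranged from 73.4 to 81.5 CPM in controls and from 64.1 to 74.7 CPM in knockouts (log2 fold change -0.17, edgeR adjusted p = 0.119). Tyms, which makes thymidylate, ranged from 44.0 to 47.6 and from 40.5 to 51.9 CPM (log2 fold change -0.04).

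The knockout libraries differed among themselves in this class. Knockout 2 had the highest knockout value for 11 of 11 replication genes and exceeded all controls for 4. Knockout 1 was below all controls for 11 of 11, knockout 4 for 10 and knockout 3 for 7. Of the 13 mitotic genes, knockout 1 was below all controls for 0, knockout 4 for 0 and knockout 3 for 7. Knockout 2 had the highest knockout value for 4 of those 13. The same counts over all genes were not made, so the pattern cannot be called particular to the replication genes. Knockouts 1 and 4 were also the 2 libraries with the most adrenal transcripts. Without control 4 and knockouts 1 and 4, the median of the replication genes was -0.03. With an adrenal covariate over all 8 libraries it was -0.10, among libraries with Y-linked transcripts -0.05, and with totals without TMM -0.10. Without control 1 or knockout 1 alone it was -0.10 and -0.11.

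Ccna2, the cyclin of S phase and G2, ranged from 113 to 133 CPM in controls and from 111 to 129 CPM in knockouts (log2 fold change 0.01, 95% interval -0.16 to 0.17). Its groups overlapped.

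Of the 13 mitotic genes 0 were called by edgeR, and 0 had an unadjusted p under 0.05, against 14.9% and 35.1% of all genes. Mki67 was called by limma-voom (adjusted p = 0.0473) and Cdc20 by edgeR without control 2 (adjusted p = 0.0451). These settings called 44.9% and 37.4% of all genes. The median log2 fold change was -0.03, or 0.05 without TMM and 0.01 by limma-voom, with a range of -0.15 to 0.15, and 8 estimates lay below and 5 above 0. Mki67, the proliferation marker Ki-67, stood at 289, 309, 253 and 246 CPM in controls and at 325, 314, 295 and 286 CPM in knockouts, with overlap between the groups (log2 fold change 0.15, 95% interval -0.04 to 0.34). Top2a, the topoisomerase that untangles chromosomes, ranged from 230 to 276 and from 249 to 276 CPM (log2 fold change 0.06).

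The cyclin B kinase, which drives entry into mitosis, was not called in any of its parts. Ccnb1 ranged from 98.4 to 116 CPM in controls and from 88.8 to 109 CPM in knockouts, Ccnb2 from 91.3 to 109 and from 95.8 to 112 CPM. Cdk1, their kinase, ranged from 93.6 to 111 and from 92.7 to 104 CPM. The 95% intervals of these log2 fold changes ran from -0.24 to 0.15 for Ccnb1, from -0.14 to 0.20 for Ccnb2 and from -0.20 to 0.12 for Cdk1.

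The other mitotic kinases were at lower levels. Aurka, of the spindle poles, ranged from 37.8 to 44.4 CPM in controls and from 35.5 to 43.3 CPM in knockouts. Aurkb, of the centromere, ranged from 46.5 to 51.3 and from 45.9 to 49.7 CPM, and its partner Birc5 (survivin) from 59.0 to 78.5 and from 62.7 to 71.1 CPM. All of these groups overlapped. Bub1, of the spindle checkpoint, ranged from 36.9 to 44.3 and from 34.6 to 41.2 CPM, and Plk1 from 41.9 to 54.6 and from 45.4 to 50.0 CPM.

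Genes of mitotic exit and the spindle motor overlapped between genotypes too. Cdc20, which activates the anaphase-promoting complex, ranged from 98.7 to 122 CPM in controls and from 91.3 to 107 CPM in knockouts, and had the lowest mitotic estimate (log2 fold change -0.15, SE 0.08, edgeR adjusted p = 0.201). Ube2c, the ubiquitin-conjugating enzyme of that complex, ranged from 94.0 to 114 and from 94.5 to 113 CPM. Kif11, the motor that separates spindle poles, ranged from 79.3 to 99.8 and from 77.2 to 101 CPM (log2 fold change 0.00, 95% interval -0.23 to 0.24).

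**Figure D3:**
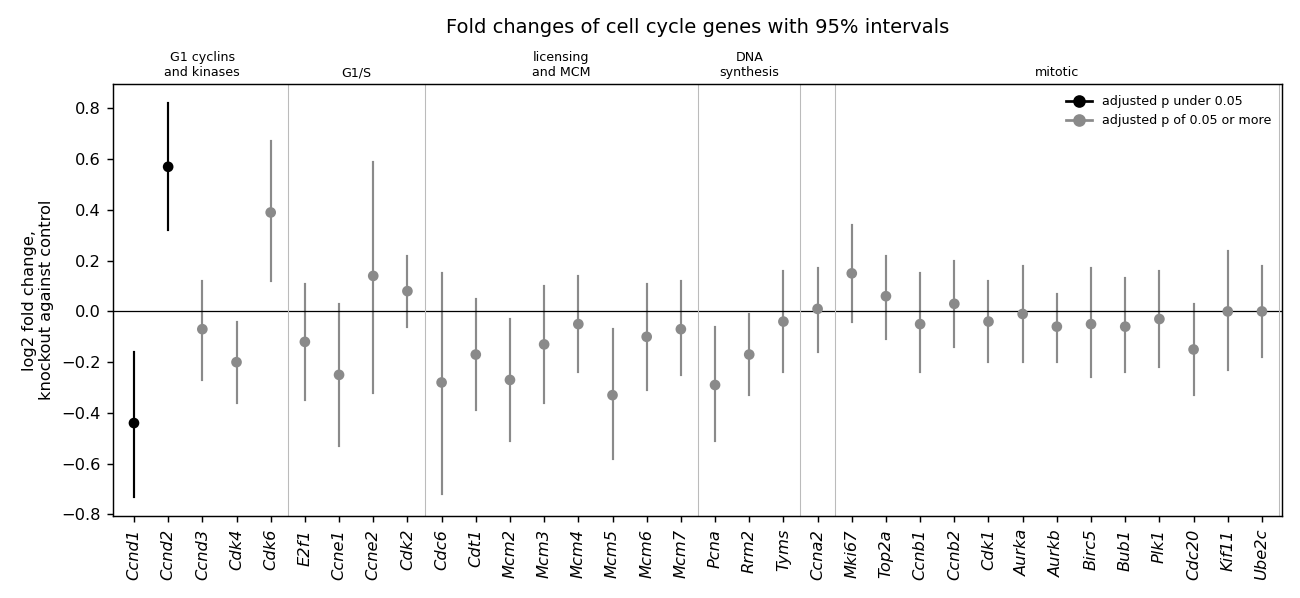
Log2 fold changes of the 34 genes, knockout against control, with 95% intervals from the edgeR fit on 8 libraries, grouped by role; black marks have an adjusted p under 0.05. Ccnd1 and Ccnd2 alone are black, and the 13 mitotic genes lie between -0.15 and 0.15. The 11 replication genes all lie below 0 in this fit (8 of them without TMM, and not all with some libraries left out).

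The 2 classes were then compared within each library. The mean log2 CPM of the 11 replication genes minus that of the 13 mitotic genes was -0.02, -0.08, -0.02 and 0.16 in controls and -0.34, 0.07, -0.02 and -0.33 in knockouts. Knockouts 1 and 4 stood apart, whereas knockouts 2 and 3 lay within the control range. The knockout mean was lower than the control mean by a difference of -0.17 on the log2 scale, and the groups overlapped. Without control 4 and knockouts 1 and 4 the difference was 0.07, and among libraries with Y-linked transcripts it was -0.02. Knockouts 1 and 4 were again those with 2700 and 365 CPM of adrenal markers, and they lacked Y-linked transcripts, as did control 2 at -0.08. The part of either in this difference was not tested.

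**Figure D4:**
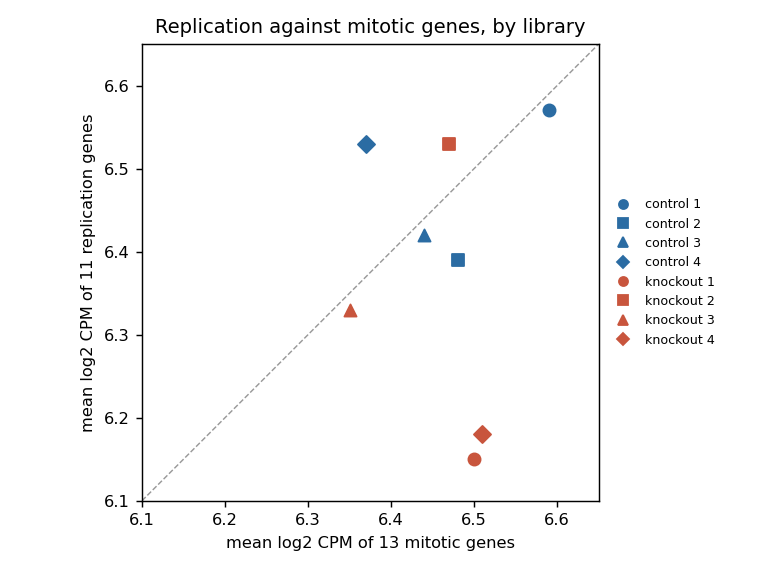
Mean log2 CPM of the 11 replication genes against that of the 13 mitotic genes, one mark per library, with a dashed line of equal levels. Knockouts 1 and 4 lie 0.34 and 0.33 below the line, control 4 lies 0.16 above it, and the other libraries lie within 0.08 of it.

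Levels between genes were compared per kilobase of exon. In controls Cdk4 was the most abundant of the 34 with 149 CPM per kilobase, followed by Pcna with 87.1, Ccnb2 with 65.1, Cdc20 with 59.7 and Ccnd1 with 55.4. In knockouts Cdk4, Pcna and Ccnb2 held the same order with 130, 71.3 and 66.5, and Ccnd1 stood at 40.7. The lowest in controls were Cdk6 with 2.87, Cdc6 with 3.65 and Ccne2 with 4.11.

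Other genes of the same pathways gave few calls as well. Of 45 other replication genes, 0 were called higher and 3 lower (6.67% in all), against 14.9% of all genes. Their median log2 fold change was -0.08 with 34 estimates (75.6%) below 0, against 49.5% of all genes and 55.0% of those of at least 10 CPM. The called genes were Gmnn, the inhibitor of Cdt1 (38.5 to 41.7 CPM in controls, 28.4 to 36.1 in knockouts, log2 fold change -0.35, edgeR adjusted p = 0.0279), Pold2, a subunit of polymerase delta (54.6 to 65.1 and 46.2 to 52.6 CPM, log2 fold change -0.30, edgeR adjusted p = 0.0328), and Fen1, the flap endonuclease (9.09 to 12.7 and 6.34 to 8.23 CPM, log2 fold change -0.52, edgeR adjusted p = 0.0460). Each lay below all controls in every knockout, knockout 2 included. Over the 45 genes, 4 were separate with knockouts below (Rfc5, not called, was the other) and 0 with knockouts above. Of all genes, 9.58% and 9.29% were. Of 53 other mitotic genes, 1 was called higher and 0 lower (1.89%), also against 14.9%. Their median was 0.07, with 36 estimates above 0 and 32.1% below. The called gene was Ckap2, a spindle protein, at 39.9 to 50.7 CPM in controls and 51.0 to 63.4 CPM in knockouts (log2 fold change 0.36, edgeR adjusted p = 0.0489). Of 20 alternatives, the call was lost in 8 for Gmnn, 9 for Pold2, 14 for Fen1 and 12 for Ckap2. Among the 8 fits with 1 library left out it was lost in 5, 6, 7 and 6. Without the 3 libraries high in adrenal markers, where 1 gene in all was called (0.00522%), none of these 4 was called. Their edgeR adjusted p there ran from 0.408 to 0.506.

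Factors that switch these genes on or off did not pass the test. Of 19 transcription factors and pocket proteins 0 were called by edgeR and 0 had an unadjusted p under 0.05, against 14.9% and 35.1% of all genes. The retinoblastoma gene Rb1 ranged from 20.5 to 27.2 CPM in controls and from 17.9 to 21.4 CPM in knockouts (log2 fold change -0.24, edgeR adjusted p = 0.179), and Foxm1, a factor for mitotic genes, from 42.2 to 48.2 and from 42.7 to 47.4 CPM. Of 17 inhibitors 16 were tested and 0 were called by edgeR, with 4 (25.0%) at an unadjusted p under 0.05, while Cdkn2a stood at 0.0404 to 0.603 CPM in all libraries and was not tested. Of the 16 estimates 9 lay below and 7 above 0, with a median of -0.13. The highest was that of Cdkn1b (p27), which ranged from 88.9 to 104 CPM in controls and from 102 to 132 CPM in knockouts (log2 fold change 0.30, edgeR adjusted p = 0.0578). The lowest was that of Gadd45g, at 21.0 to 60.0 and 10.6 to 19.3 CPM (log2 fold change -0.98, edgeR adjusted p = 0.0868). Its knockouts all lay below all controls, as for 9.58% of all genes. DESeq2 called 2 of the inhibitors, against 24.4% of all genes.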

How the data were processed

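Whole-number read counts per gene were deposited by the authors, without normalization, per the file headers. The submitters' processing notes name Trimmomatic 0.36, STAR 2.5.2b, featureCounts, Subread 1.5.2, DESeq2 and build GRCm38. Their order, the strand setting and the treatment of reads that match several genes are not given in the sources used here. The table of the whole series and the deposited files per library had 0 differing counts, and 0 rows named no gene. Symbols came from GENCODE M21 for 48970 of 49315 IDs, and 91.4% of these had the same coordinates as the deposited table. Coordinates are those of the deposited table, counted from 1. Another annotated gene overlaps 16 of the 34, and for 12 it lies only on the opposite strand.

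Counts were filtered with filterByExpr, scaled by TMM and tested in edgeR 4.0.16 (R 4.3.3) by quasi-likelihood, 4 libraries against 4, with no covariate. Benjamini-Hochberg adjustment ran over 18485 genes. Standard errors were derived from fold changes and F statistics. Class means used log2 CPM with a prior count of 2. Depth was 19524945 to 28544511 counts per library, and standard errors include the spread between libraries.

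The 34 genes, the lists and the tests were chosen with earlier results of these data known. All 34 are named, with full statistics for those called or without overlap, besides Kdm1a, the called genes of each other list and some uncalled genes chosen after their values were seen. Alternatives were DESeq2 1.42.0 and its size factors, limma-voom 3.58.1, other filters, a replicate block, a Y-linked covariate and each library left out. The main fit was also repeated on the counts deposited per library, which were identical to those of the whole series. An adrenal covariate, leaving out 3 libraries with over 100 CPM of adrenal markers, keeping only libraries with Y-linked transcripts, and totals without TMM were chosen after seeing the data. The series' design text names a histone mark, while the values used here are RNA counts.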

Additional observations from a re-analysis of the deposited data

Results flagged for a closer look

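Of 82 groups of 4 libraries examined, 3 held a library far from the other 3 (a gap past the 95% critical value of Dixon's ratio), and chance flags about 1 in 20 groups. Ccnb1 stood at 116 CPM in control 1 and at 98.4 to 101 CPM in the other controls. Aurkb stood at 46.5 CPM in control 4 and at 50.5 to 51.3 CPM in the other controls. The ratio of Ccnd2 to Ccnd1 per kilobase was 0.95 in knockout 2 and 0.622 to 0.663 in the other knockouts.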

How the results depend on the processing

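Same-numbered libraries deviated from their group means with correlations of -0.11, 0.33, 0.23 and -0.06, and 3 of 8 libraries correlated best with their own number, so the numbers were not taken to pair samples. The replicate block called 3229 genes (17.5%), with 2 of the 34 higher, 1 lower, 1 other replication gene, 3 other mitotic genes and 2 inhibitors. DESeq2 called 4506 genes (24.4%), with 2 of the 34 higher and 4 lower, 4 other replication genes, 4 other mitotic genes and 2 inhibitors. limma-voom with sample weights called 8302 (44.9%), with 3 higher and 6 lower, 11 other replication genes, 17 other mitotic genes and 6 inhibitors. The adrenal covariate gave 1392 calls (7.53%), with 1 of the 34 higher, 0 lower and 0 in either list of other genes. Leaving out the 3 libraries high in adrenal markers gave 1 call, 0 of the 34 in either direction, 0 in either list of other genes, a median of -0.03 for replication and -0.13 for mitotic genes, a difference between the classes of 0.07, and -0.29 for Kdm1a, no longer called. Among libraries with Y-linked transcripts 3163 genes (16.7%) were called, with 2 of the 34 higher, 1 lower, 1 other replication gene, 1 other mitotic gene and 1 inhibitor. Kdm1a stood at -0.28 there and was not called. Totals without TMM gave 2745 calls (14.8%), with 2 of the 34 higher, 0 lower, 2 other replication genes, 2 other mitotic genes and 1 inhibitor. Kdm1a stood at -0.20 there and was not called. DESeq2 size factors in edgeR, no filter on low counts and the Y-linked covariate each gave 0 other mitotic genes. Leaving out 1 library gave 153 to 7084 calls, 0 to 2 of the 34 higher, 0 to 6 lower, 0 to 5 other replication genes, 0 to 11 other mitotic genes, 0 to 7 inhibitors, medians of -0.21 to -0.10 for replication and -0.06 to 0.04 for mitotic genes, class differences of -0.24 to -0.10, and -0.29 to -0.24 for Kdm1a, whose call was lost without control 1 or 3 or knockout 1, 2 or 4 (adjusted p 0.0529 to 0.0765). The most calls came without control 2, which lay beside knockout 3 on the first principal component, and the fewest without knockout 4. Some estimates changed sign, none of them called. Not all were near 0 in the main fit, where those of Cdc6, Mcm3, E2f1 and Mcm6 were -0.28, -0.13, -0.12 and -0.10. With the 3 libraries out, log2 fold changes were 0.02 for Ccnd3, 0.03 for Cdc6, 0.06 for Mcm3, 0.00 for Mcm4, 0.05 for Mcm6, 0.08 for Tyms, -0.07 for Ccna2, -0.09 for Ccnb2, 0.02 for Plk1, -0.15 for Kif11 and -0.13 for Ube2c. Without TMM they were 0.00 for Ccnd3, 0.03 for Mcm4, 0.01 for Mcm7, 0.03 for Tyms, 0.03 for Ccnb1, 0.04 for Cdk1, 0.07 for Aurka, 0.01 for Aurkb, 0.02 for Birc5, 0.02 for Bub1 and 0.05 for Plk1. Among libraries with Y-linked transcripts they were 0.03 for E2f1, 0.01 for Mcm3, 0.03 for Mcm4, 0.00 for Mcm6, 0.07 for Tyms, -0.05 for Ccnb2, 0.01 for Birc5, -0.05 for Kif11 and -0.10 for Ube2c. The adrenal covariate gave 0.01 for Tyms and -0.03 for Kif11 and Ube2c, no filter -0.01 for Ccna2 and -0.02 for Kif11 and Ube2c, and the Y-linked covariate -0.02 for Ccna2 and Ube2c, 0.01 for Plk1 and -0.04 for Kif11. limma-voom gave 0.01 for Cdk1 and Birc5 and 0.02 for Aurka, and a filter at a mean of 1 CPM 0.00 for Aurka. With 1 library left out, ranges that crossed 0 were -0.13 to 0.01 for Mcm4, -0.13 to 0.02 for Tyms, -0.03 to 0.06 for Ccna2, -0.08 to 0.03 for Ccnb1, -0.02 to 0.09 for Ccnb2, -0.08 to 0.02 for Cdk1, -0.05 to 0.07 for Aurka, -0.13 to 0.01 for Birc5, -0.10 to 0.01 for Bub1, -0.10 to 0.04 for Plk1, -0.06 to 0.10 for Kif11 and -0.04 to 0.07 for Ube2c. The cause of these shifts was not tested. Intervals of the log2 fold changes limit what could be seen: for the mitotic genes they reached from -0.33 to 0.34.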

Other observations

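Some uncalled mitotic genes, chosen after their values were seen, were separate between the groups. Cdc25b, a phosphatase that activates the cyclin B kinase, ranged from 64.7 to 83.3 CPM in controls and from 86.3 to 95.7 CPM in knockouts (log2 fold change 0.26, edgeR adjusted p = 0.0607). Nek2, a centrosome kinase, ranged from 46.2 to 57.7 CPM in controls and from 41.5 to 44.6 CPM in knockouts (log2 fold change -0.24, edgeR adjusted p = 0.0668). Over the 53 other mitotic genes, 3 were separate with knockouts above and 4 with knockouts below, against 18.9% of all genes in either direction.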
